A study of Homo sapiens with 4 samples.

Results

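The 9 genes examined here are drivers of liver cancer, that is, genes whose mutation, loss or amplification recurs in hepatocellular carcinoma. They were taken from a list of names: CTNNB1 and AXIN1 of Wnt signalling, ARID1A and ARID2 of chromatin remodelling, RB1 and CCND1 of the cell cycle, the transcription factor gene MYC, the growth factor receptor gene MET, and TSC2, which restrains mTOR. All 9 were found among the 19817 protein-coding genes of the RefSeq table on chromosomes 1 to 22 and X. The measurement was CUT&Tag for γH2AX, the histone variant H2AX phosphorylated next to DNA double-strand breaks. In this assay an antibody directs a transposase to chromatin, and the DNA cut there is sequenced. The cells were HepG2, an established human liver cancer line. The series has 4 samples in 4 groups of 1: mock-induced cells with the γH2AX antibody (titled HEPG2-DMSO), lipid overload-induced cells with it (HEPG2-PAOA), and each treatment with IgG. The labels state neither the dose nor the duration of the lipid treatment. Values come from the peak lists of both γH2AX libraries. IgG was not analysed here, so no antibody background stands beside any value. With 1 library a condition, no difference below has a replicate check and none was tested.

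There were 8542 peaks in mock and 27296 in lipid overload. Judged by the genome-wide background in the lists, the lipid-overload library was 2.62 times as deep in fragments. By the steps of the backgrounds its fragments were shorter, under assumptions given with the processing below. The same background as fragments over a base, the unit of the heights, was 2.39 times that of mock. Height below means the number of DNA fragments over a peak's summit, solved from each peak's deposited fold and p. Its median over all peaks was 5 fragments in mock and 9 in lipid overload. No mock peak had fewer than 3 fragments and no lipid-overload peak fewer than 4. A site without a listed peak is therefore below what the caller accepted, and its number of fragments is not known. Brackets after heights and shares hold 95% intervals that cover counting error only. A gene end means 1 kb either side of either end of the gene, and a peak counted there when it shared 1 bp or more.

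These genes act in a few connected routes. β-catenin, the product of CTNNB1, switches on growth genes, MYC and CCND1 among them, unless a complex built on the AXIN1 scaffold marks it for destruction. HepG2 cells carry a CTNNB1 deletion that removes the part of the protein that this complex phosphorylates. Cyclin D1, made from CCND1, helps to inactivate the RB1 protein and so lets cells enter DNA replication. ARID1A and ARID2 are DNA-binding subunits of different forms of the SWI/SNF complex, which moves nucleosomes. MET is the receptor for hepatocyte growth factor, and TSC2 with its partner TSC1 holds back the growth kinase mTOR.

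In lipid overload, 7 of the 9 genes had a gene-end peak (77.8%, 39.99 to 97.2), against 43.4% of all protein-coding genes. In mock, 2 of 9 had one, AXIN1 and MYC (22.2%, 2.81 to 60.01), against 13.4% of all. Both intervals include the share of all genes. A gene-end peak in lipid overload without one in mock was listed at 5 genes, CTNNB1, ARID2, RB1, CCND1 and MET (55.6%, 21.2 to 86.3), against 31.4%. ARID1A and TSC2 had no gene-end peak in either list. In lipid overload the highest peak per gene had a median of 11 fragments over the 7 members, against 12 over the 8610 marked coding genes (quartiles 8 and 18). In mock, the heights of AXIN1 and MYC, 9 and 14, stood against a median of 7 over 2656 marked genes (quartiles 5 and 9).

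**Figure D1:**
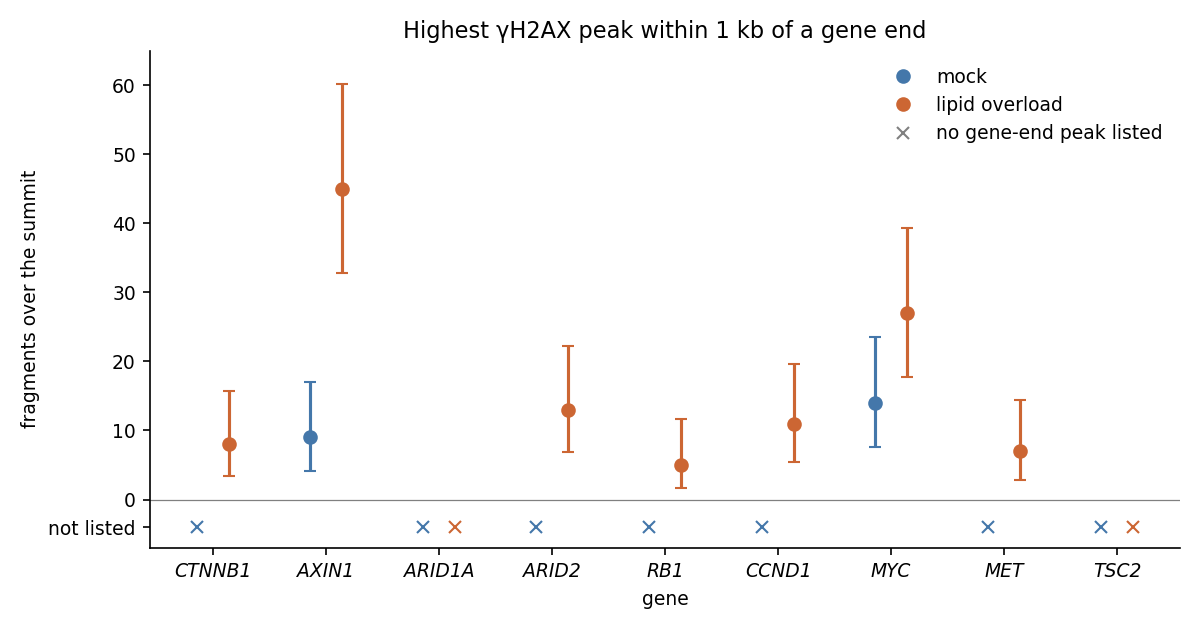
Height of the highest γH2AX peak within 1 kb of a gene end, in fragments over the summit, for each of the 9 genes in mock (blue) and lipid overload (orange). Bars are exact Poisson 95% intervals, and crosses mark genes with no gene-end peak listed. AXIN1 (45 fragments) and MYC (27) stand highest in lipid overload and are the genes marked in mock (9 and 14). The mock and lipid-overload points of MYC come from different peaks.

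The count was also taken with the lipid-overload values scaled down. When lipid-overload fragments and backgrounds were divided by 2.62 and held to the weakest p of the mock list, 4 members remained marked in lipid overload: CTNNB1, AXIN1, ARID2 and MYC. Of these, CTNNB1 and ARID2 had no mock peak at a gene end. The same step left 30.2% of all coding genes marked in lipid overload, and 19.5% marked there without a mock gene-end peak, a share close to 2 of 9. Division by 2.39 left the same 4 members, against 32.4% of coding genes, with 21.4% marked without a mock gene-end peak. With the lipid-overload list shortened to the length of the mock list, AXIN1, ARID2 and MYC remained, against 25.9% of coding genes, and ARID2 had no mock gene-end peak, as in 15.9%. The peaks of RB1, CCND1 and MET were lost under both.

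Most gene-end peaks of the members sat at the 5′ end, where transcription starts. The same split was not computed over all coding genes, so it is not shown to be particular to the members. The RefSeq promoter table gives the direction of 6 members, and ARID2, CCND1 and MYC were taken as running towards higher coordinates from general knowledge. In lipid overload the 9 genes had 8 peaks at 5′ ends, spread over 7 genes, and 1 at a 3′ end, that of MYC. Both mock gene-end peaks were at 5′ ends. With the rest of the gene included, all 9 genes held a lipid-overload peak, against 58.0% of coding genes, and 2 held a mock peak, against 24.2%. These shares were not matched for gene length. An internal lipid-overload peak was found in 12.2% of coding genes below 20 kb and in 48.6% of those of 100 to 200 kb.

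The promoters under these peaks can be read for 3 members. The table has a record at the outer start of 5 members, CTNNB1, AXIN1, ARID1A, MET and TSC2, and a lipid-overload peak lay over it at CTNNB1, AXIN1 and MET. Of the 250 bases before the start that the record holds, those under the lipid-overload peak are shown, from RefSeq (GRCh38.p14), 5′ to 3′ in the direction of transcription. Each peak reaches further upstream than its record. Capitals mark GGGCGG or its reverse complement CCGCCC, the GC box to which SP1-type factors bind. CTNNB1 is chr3:41199255-41199504 on the plus strand, AXIN1 chr16:352724-352973 on the minus strand, and MET chr7:116671946-116672114 on the plus strand.
CTNNB1: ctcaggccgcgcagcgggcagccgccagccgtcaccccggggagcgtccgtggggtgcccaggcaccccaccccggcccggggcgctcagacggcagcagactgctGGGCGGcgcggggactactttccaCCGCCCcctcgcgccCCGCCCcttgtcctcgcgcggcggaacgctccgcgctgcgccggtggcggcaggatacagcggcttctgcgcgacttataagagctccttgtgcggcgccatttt
AXIN1: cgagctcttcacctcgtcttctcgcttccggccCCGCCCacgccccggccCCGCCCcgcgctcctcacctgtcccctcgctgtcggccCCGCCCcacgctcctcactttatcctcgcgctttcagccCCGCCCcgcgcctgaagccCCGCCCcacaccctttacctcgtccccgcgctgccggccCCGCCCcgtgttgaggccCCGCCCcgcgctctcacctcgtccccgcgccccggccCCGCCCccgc
MET: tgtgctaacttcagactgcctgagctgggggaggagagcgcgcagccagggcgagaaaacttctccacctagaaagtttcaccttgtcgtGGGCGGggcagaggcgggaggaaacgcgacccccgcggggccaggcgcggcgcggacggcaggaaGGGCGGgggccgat

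The AXIN1 promoter repeats the GC box 8 times within its 300 bases, a number reached by 1.16% of the 13792 coding-gene promoters in the table. CTNNB1, MET and ARID1A had 3 each, where 22.05% of promoters have 3 or more, and TSC2 had 1. At least 1 GC box stood in 58.5% of all promoters. Of the other words searched on both strands, CACGTG (the E-box, in 8.95% of promoters) was found once in MET and once in TSC2. TGANTCA (AP-1, in 5.78%), CCAAT (37.1%) and TATAAA (10.03%) were in none of the 5. A match is a word in the sequence and says nothing of binding in these cells.

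All 5 promoters were rich in G and C, from 69.3% in MET to 78.0% in AXIN1 and ARID1A, against a median of 62.7% over all promoters. Rich promoters were often marked in lipid overload. With all promoters ranked by G+C and divided into 4 groups, a peak lay over 49.2% of the richest group and 51.1% of the next, but over 8.09% of the poorest. Over all promoters the share was 36.0% in lipid overload and 9.98% in mock. Of the 5 members, 3 were marked. ARID1A and TSC2, without a peak there, had 78.0% and 73.0% G+C.

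Of the Wnt genes, CTNNB1 had a single small peak and AXIN1 the highest of all 9. CTNNB1 spans chr3:41199505-41240443. Its peak, chr3:41199191-41199509, was 319 bp wide and had 8 fragments (3.45 to 15.8) at an authors' fold of 6.32, with its summit 144 bp before the start. No mock peak was listed within 50 kb of the gene, and lipid overload had no other. The 8 fragments amount to 3.05 at mock depth, close to the fewest that any mock peak had.

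AXIN1, at chr16:287440-352723 on the minus strand, was marked at its 5′ end in both conditions. The mock peak had 9 fragments (4.12 to 17.1), a width of 256 bp and a summit 19 bp before the start. In lipid overload the peak had 45 fragments (32.8 to 60.2), a width of 481 bp and a summit 185 bp before the start, at chr16:352665-353145. The authors' fold was 4.94 in mock and 10.1 in lipid overload. As high a gene-end peak in lipid overload was found at 1.86% of the marked coding genes. The ratio of fragments was 5.00 (2.41 to 11.6), which is 1.91 times the ratio of depths and 2.09 times the ratio of genome backgrounds. The interval includes 2.62 but not 2.39.

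The body of AXIN1 also held peaks, 1 in mock and 6 in lipid overload. As many or more internal lipid-overload peaks were found in 1.21% of coding genes. One internal site was listed in both conditions with its summit at the same base, 17.4 kb into the gene, at 10 fragments in mock and 15 in lipid overload. The ratio there was 1.5 (0.630 to 3.73). The tallest internal peak, at chr16:327107-327673, was 567 bp wide with 20 fragments (12.2 to 30.9) and had no mock counterpart. The other 4 had 7 to 10 fragments. So the promoter and the internal site of the same gene gave ratios of 5.00 and 1.5, with overlapping intervals.

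The surroundings of AXIN1, gene-rich sequence near the tip of the short arm of chromosome 16, were dense in peaks as well. Within 50 kb of the gene and inside it, mock listed 4 peaks and lipid overload 13. As many were reached around 4.34% of coding genes in mock and 2.08% in lipid overload. Within RGS11, which encodes a regulator of G protein signalling, a site had 7 fragments in mock and 27 in lipid overload (ratio 3.86, 1.64 to 10.5). At the end of NME4, a mitochondrial nucleoside diphosphate kinase gene, the heights were 5 and 11. Lipid overload alone listed peaks at the ends of ARHGDIG (11 fragments), DECR2 (14) and LOC100134368 (16), and between genes 9.65 kb before the AXIN1 start (20).

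**Figure D2:**
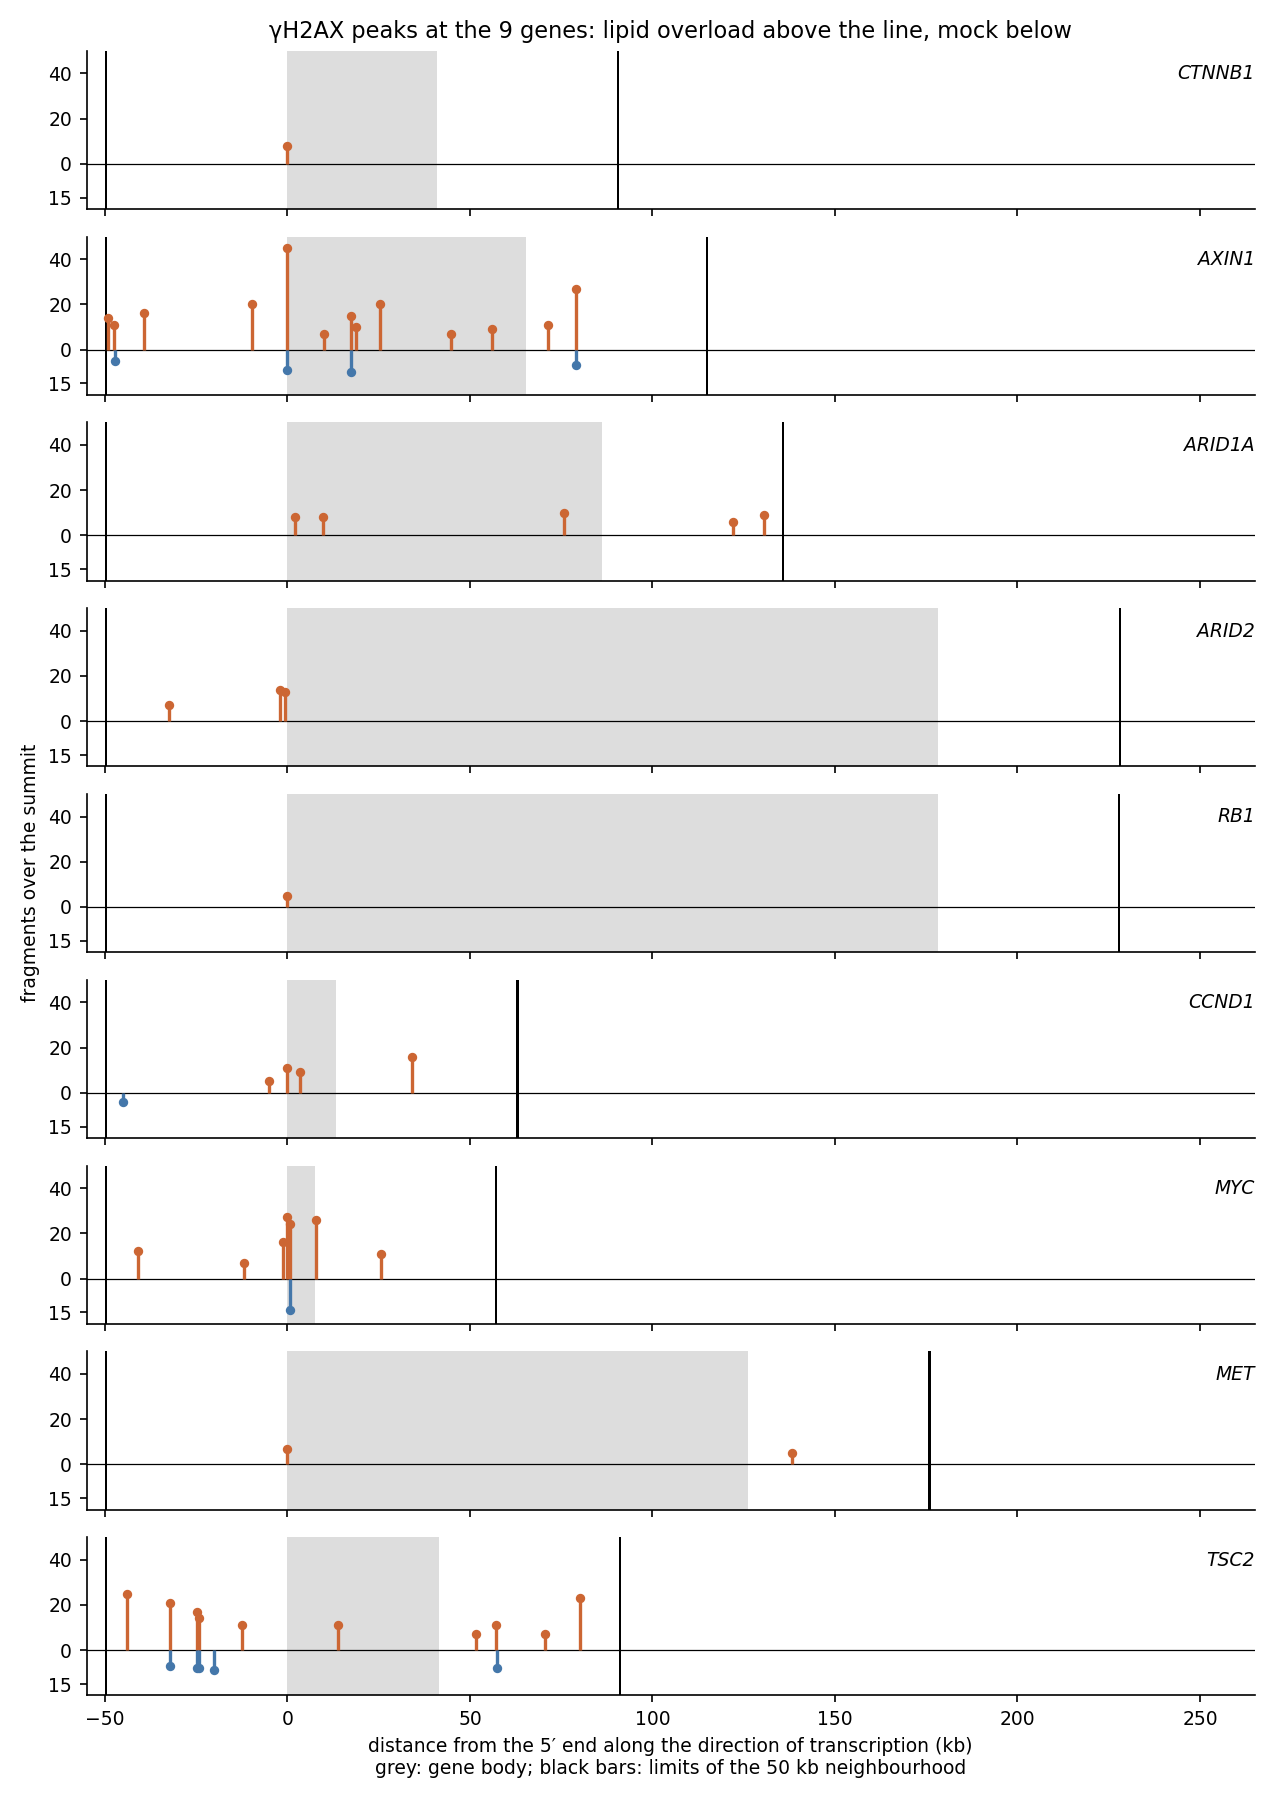
Position and height of every γH2AX peak within 50 kb of the 9 genes, by distance in kb from the 5′ end along the direction of transcription. Lines up are lipid-overload peaks and lines down mock peaks, in fragments over the summit. Grey is the gene body, and black bars limit the neighbourhood. AXIN1 (4 mock and 13 lipid-overload peaks), TSC2 (5 and 10) and MYC (1 and 7) hold most of the peaks, while CTNNB1 and RB1 have 1 each, in lipid overload.

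The chromatin remodelling genes ARID1A and ARID2 differed in where their peaks lay. ARID1A, at chr1:26696015-26782104, had no gene-end peak but 3 internal ones in lipid overload. The nearest to the start, chr1:26698036-26698261, had 8 fragments (3.45 to 15.8) with its summit 2.18 kb into the gene, so a gene-end window of 3 kb would count it. The others had 8 and 10 fragments at 9.84 and 75.8 kb. Beyond the gene, the end of ZDHHC18, a protein palmitoyltransferase gene, had 9 fragments, and an intergenic site had 6. Mock listed no peak within 50 kb of ARID1A or of ARID2.

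ARID2, at chr12:45729706-45908037, had 1 gene-end peak in lipid overload. It was 149 bp wide with 13 fragments (6.92 to 22.2) at a fold of 7.06, at chr12:45728891-45729039, and its summit lay 748 bp before the start. As high a peak was found at 49.97% of marked coding genes. The same peak is also within 1 kb of the end of the noncoding gene LINC00938. A second peak, inside LINC00938 and 1.93 kb before the ARID2 start, was 319 bp wide with 14 fragments (7.65 to 23.5). The first peak lies between the neighbouring genes, the second over LINC00938, and neither reaches ARID2. A further peak, 32.5 kb before the start, had 7 fragments.

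Of the cell cycle genes, RB1 had the lowest gene-end peak of the 7 marked members. RB1 spans chr13:48303751-48481890, and its peak, chr13:48303690-48303908, had 5 fragments (1.62 to 11.7) at a fold of 4.53, with the summit 1 bp from the start. It also overlaps RB1-DT, the noncoding transcript that runs away from the same start. Among marked coding genes, 98.6% had a peak at least as high. Scaled to mock depth it amounts to 1.91 fragments, below the 3 of any mock peak, so its absence from the mock list could not be told from a difference in depth. Nothing else was listed within 50 kb of RB1 in either condition.

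CCND1, at chr11:69641156-69654474, had a 5′ peak of 11 fragments (5.49 to 19.7) in lipid overload, 343 bp wide, with the summit 10 bp before the start (chr11:69641111-69641453, fold 5.22). A second peak, 3.34 kb into the gene, had 9 fragments. Upstream, a site 5.16 kb before the start had 5. The tallest peak near CCND1, 16 fragments (9.15 to 26.0), was at the end of LTO1, a gene for a factor in ribosome formation, 20.9 kb beyond the 3′ end. Mock listed 1 peak, 45.1 kb before the start, with 4 fragments and no lipid-overload counterpart. The end of FGF19, a growth factor gene nearby, lay within 50 kb and had no peak.

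MYC, at chr8:127735434-127742951, had the most gene-end peaks of the 9. It is the shortest of them at 7.52 kb and had 3 gene-end peaks in lipid overload, a number reached by 0.550% of coding genes. One lay before the start at chr8:127735168-127735378 with 27 fragments (17.8 to 39.3), its summit 215 bp upstream. Another, 651 bp wide and the widest at any member, lay within the gene at chr8:127735804-127736454 with 24 fragments (15.4 to 35.7). The third lay 190 bp past the 3′ end with 26 fragments (17.0 to 38.1).

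In mock MYC had a single peak, of 157 bp and 14 fragments (7.65 to 23.5), which lies within the 651 bp peak, and the summits of the pair were 43 bp apart. The ratio at this site was 1.71 (0.852 to 3.58), or 0.653 of the ratio of depths. The upstream peak, higher in lipid overload, and the 3′ peak had no mock counterpart. At mock depth the upstream peak amounts to 10.3 fragments. A further lipid-overload peak of 16 fragments lay 1.23 kb before the start, within 1 kb of the end of the noncoding gene CASC11. The other 3 within 50 kb had 7 to 12.

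The MYC peaks stood on a high local background. The authors' caller judged each peak against a local background, which was solved here together with the height. Whether that background was counted in the γH2AX library or in IgG is not given in the sources used here. At the 5′ end of MYC it was 12.6 times the genome-wide background in mock and 13.1 and 13.9 times in lipid overload. It was 8.43 times at the 3′ peak. AXIN1 was alike at its 5′ end, with 8.49 times in mock and 12.3 in lipid overload. Over all peaks the median was 2.38 times in mock and 2.57 in lipid overload, and 4.74% of lipid-overload peaks reached 10 times or more. At RB1, CTNNB1 and MET it was 1.12, 1.47 and 1.64 times. The part of the local background in the heights was not tested.

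MET, at chr7:116672196-116798377, had a 5′ peak of 7 fragments (2.81 to 14.4) in lipid overload, 240 bp wide at chr7:116671875-116672114, with the summit 161 bp before the start. The authors' fold was 5.43. The noncoding gene COMETT runs through this position. One other peak, 12.2 kb past the 3′ end, had 5 fragments. Mock listed none within 50 kb.

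TSC2, at chr16:2047985-2089491, was bare at its ends amid many peaks. Its start is 151 bp from the end of NTHL1, a DNA base excision repair gene, and neither list had a peak there. Lipid overload listed 1 internal peak, of 11 fragments (5.49 to 19.7), 13.8 kb into the gene. Within 50 kb there were 5 mock and 10 lipid-overload peaks. As many were reached around 1.75% of coding genes in mock and 5.74% in lipid overload.

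Of the mock sites around TSC2, 4 were also listed in lipid overload. Their heights were 7 and 21, 8 and 17, 8 and 14, and 8 and 11 fragments, in mock and lipid overload in turn. In the last pair the peaks overlap but their summits lay 380 bp apart, so those heights were read at different places. The first 3 lie between genes, 32.3, 24.8 and 24.3 kb before the TSC2 start, and the fourth lies in PKD1, the polycystic kidney disease gene that overlaps the 3′ end of TSC2. A mock peak of 9 fragments at the end of NHERF2, a membrane scaffold gene, had no lipid-overload counterpart. The tallest lipid-overload peaks without a mock counterpart were in ZNF598 (25 fragments) and in PKD1 (23 fragments at a fold of 14.9, the highest fold near any member). PKD1 has near-identical partial copies on the same chromosome, so the placing of its reads is uncertain, which was not tested.

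In all, the 9 genes and their surroundings held 11 mock and 46 lipid-overload peaks. All 3 mock peaks in the genes or at their ends overlapped a lipid-overload peak, as did 6 of the 8 in the neighbourhood, against 45.8% of all mock peaks. In the other direction, 3 of 20 and 6 of 26 lipid-overload peaks overlapped a mock peak, against 14.3% of all. At the 9 shared sites the ratio of fragments ran from 1.38 to 5.00, below both 2.39 and 2.62 at 6 sites and above both at 3. Only sites that the shallower mock library also listed enter these ratios. This choice favours sites that ran high in mock, and its effect on the ratios was not tested. The summits of the pair lay 380 bp apart at the lowest ratio and 166 bp apart at the highest. All 9 intervals included 2.62, and 8 included 2.39, the AXIN1 5′ end being the exception. Peaks within 50 kb in lipid overload were listed for all 9 genes, against 80.0% of coding genes, and in mock for 4, against 52.0%, without matching for gene length.

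**Figure D3:**
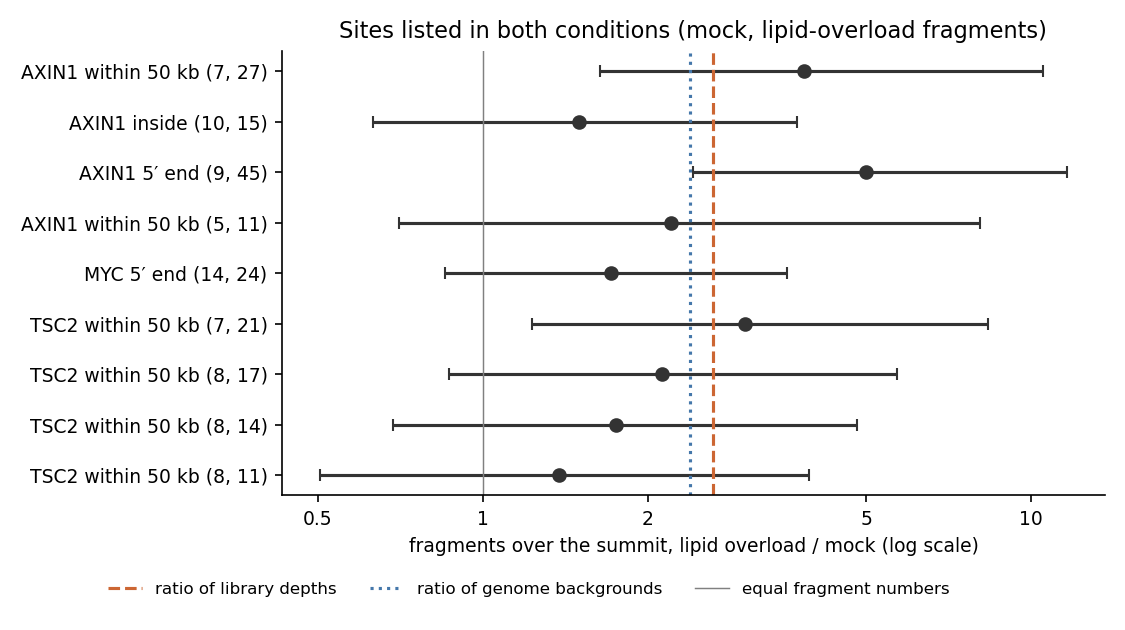
Fragments in lipid overload divided by fragments in mock at the 9 sites near the driver genes that are listed in both conditions, on a log scale, with exact 95% intervals for counting error. Numbers in brackets are the mock and lipid-overload heights. Each height is read at the summit of its own list, and the summits of a pair lie up to 380 bp apart. The dashed line is the ratio of depths, 2.62, inside all 9 intervals, and the dotted line the ratio of genome backgrounds, 2.39, inside 8. The AXIN1 5′ end has the highest ratio, 5.00, and an interval just above the dotted line.

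Over all coding genes, the share with an internal lipid-overload peak was larger in longer genes: 12.2% below 20 kb, 35.1% at 30 to 50 kb, 40.7% at 50 to 100 kb and 48.6% at 100 to 200 kb. Among the members the long genes ARID2 (178 kb), RB1 (178 kb) and MET (126 kb) held none away from their ends in lipid overload. AXIN1, 65.3 kb long, held 6, ARID1A, 86.1 kb long, 3, and the shorter TSC2 (41.5 kb) and CCND1 (13.3 kb) 1 each. CTNNB1 (40.9 kb) and MYC held none. The width of all 46 lipid-overload peaks had a median of 201 bp and ran from 129 to 651 bp. No other coding gene had exactly the pair of heights of AXIN1 (9 and 45) or of MYC (14 and 27) at its highest gene-end peaks over the 2 libraries. How often other genes lack an exact match was not computed, so this does not set the 2 genes apart.

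The wider pathways of these genes were described from 6 lists with 104 other genes, all found in the table. A mock gene-end peak was listed at 26 of them (25.0%, 17.0 to 34.4), beside 13.4% of all coding genes. Lipid overload marked 74 (71.2%, 61.4 to 79.6), beside 43.4%. In 25 the peak was in both lists and in 1 in mock alone. In 49 of the 104 it was in lipid overload alone, beside 31.4% of all coding genes. The pathway counts were not recomputed at mock depth. The lists were chosen with earlier results of these data known. They were not tested against other genes, nor were all coding genes matched to them in promoter G+C or length. Members named below follow a fixed rank by height, and a height given alone is that in lipid overload, without a gene-end peak in mock.

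Among 20 Wnt genes, 4 had a mock gene-end peak. The 12 with one in lipid overload had a median height of 13.5 fragments, beside the 8 of CTNNB1. CTNNBIP1, an inhibitor that keeps β-catenin from its DNA-binding partners, had 11 fragments in mock, against 50 after lipid overload. GSK3B, a kinase of the destruction complex, had 8 and 31. Its relative GSK3A had 25, CSNK1A1, which primes β-catenin for GSK3, 24, and TCF7L2, a DNA-binding partner of β-catenin, 15. BCL9, a β-catenin coactivator gene, was marked in mock alone, at 4.

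The SWI/SNF list of 18 had 3 marked genes in mock. Lipid overload marked 12, at a median height of 11.5. DPF2, a histone-reading subunit, had heights of 7 (mock) and 24 (lipid overload), and the actin-related subunit gene ACTL6A had 9 and 19. SMARCD2 had 26, the ATPase gene SMARCA4 14, and PBRM1, a subunit of the same form of the complex as ARID2, 13, equal to the height at ARID2. Of the 18 cell cycle genes, 3 and 13 were marked in this order, with a median of 15 fragments in lipid overload. CDK2 stood at 25 and 46 and CDK4, the kinase that cyclin D1 activates, 9 and 32. TFDP1, the partner of E2F factors, had 21, the cyclin gene CCNE2 20 and E2F3, a factor bound by RB1, 18.

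In the MYC network of 12, 3 and 10 genes were marked. MXD1, which competes with MYC for MAX, had heights of 7 and 23, and MLX, a related partner, had 6 and 11. MNT, another repressor that pairs with MAX, had 40, MLXIP 16 and MXD3 13. Among 18 genes of MET signalling, 5 and 12 were marked. The adaptor gene SHC1 had 15 and 44 fragments and the transcription factor gene STAT3 10 and 41. HRAS had 18.

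The list around TSC2 and mTOR was marked most often in mock, in 8 of 18 genes (44.4%, 21.5 to 69.2), against 13.4% of all coding genes. In lipid overload 15 of 18 were marked (83.3%, 58.6 to 96.4), against 43.4%. TSC2 itself had no gene-end peak in either list. DDIT4, a stress-induced inhibitor of mTOR, stood at 17 and 43 fragments and the kinase gene AKT2 12 and 36. RHEB, the small GTPase that the TSC complex switches off, had 23, DEPTOR 16 and RICTOR, a subunit of the second mTOR complex, 14. The intervals of the 6 lists overlap one another in each condition.

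**Figure D4:**
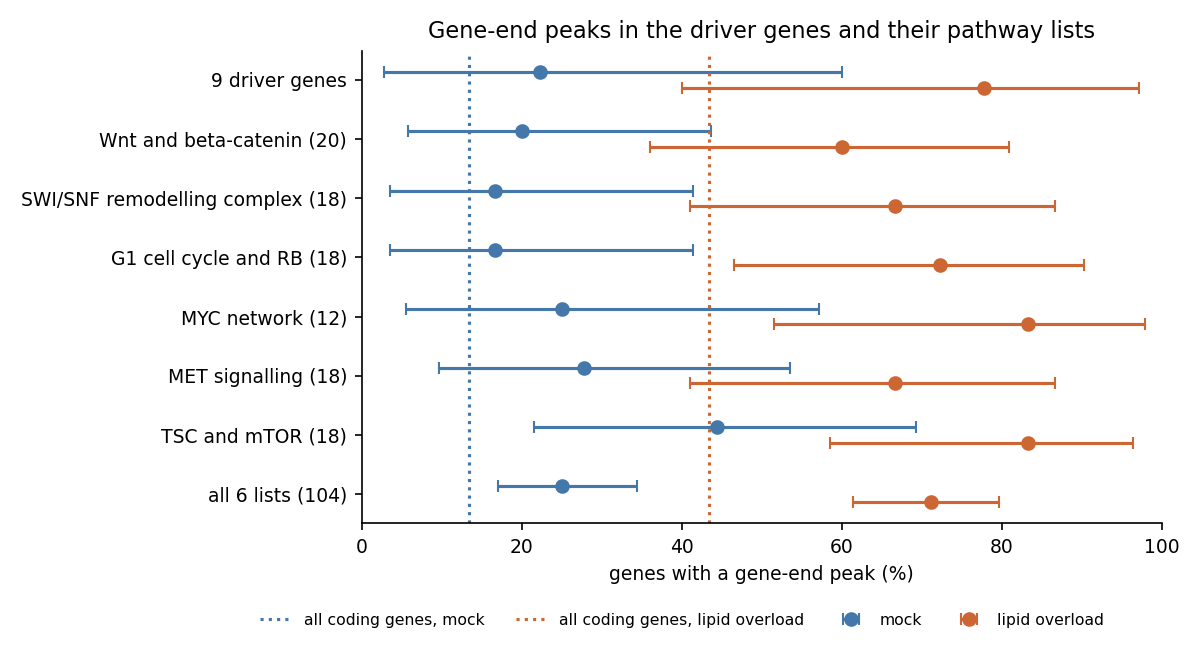
Share of genes with a γH2AX gene-end peak in mock (blue) and lipid overload (orange) for the 9 driver genes and 6 lists of pathway genes, in percent, with exact binomial 95% intervals. Numbers of genes stand in brackets, and dotted lines are the shares of all coding genes, 13.4% and 43.4%. Each list lies to the right of its line, and most mock intervals include it.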

How the data were processed

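CUT&Tag used 100000 cells and 14 PCR cycles a sample, per the labels. The submitters' processing notes name FastQC, BWA, MACS2 2.1.2, deepTools and hg38. Neither settings nor any use of IgG as a control is given in the sources used here. Peaks were deposited per library, so each condition has its own list. In the deposited lists the fold (a linear ratio), the −log10 p and −log10 q and the score are the authors'. The lowest deposited −log10 q was 1.30 in both lists.

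Fragments over a summit were solved from fold, (fragments + 1)/(background + 1), and the Poisson tail p. A whole number fitted 100% of peaks within 0.0001 in log10 p. At 56 mock peaks more than 1 whole number fitted, and the closest was kept. The step was tested on simulated data made with the same formulas, which checks the solving but not whether the authors' values follow them. Backgrounds above the genome level were whole multiples of 1 step, giving fragment lengths of 137 bp (mock) and 124 bp (lipid overload). Both lengths assume that the background was counted in the γH2AX library itself, over 10 kb, with both ends of each fragment counted. Reading heights as DNA fragments likewise assumes that whole fragments were counted. The sources used here do not state these points. Genome backgrounds of 0.121 and 0.289 fragments, divided by these lengths, gave the ratio of depths, 2.62; undivided they differ 2.39 times. Intervals are exact Poisson for heights and exact binomial for shares and ratios. They cover counting error only. Whether PCR copies were removed before counting is not given in the sources used here, and any copies counted would make the intervals too narrow.

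Genes came from RefSeq GRCh38.p14, in the coordinates of hg38, without 718 genes out of position order by over 1 Mb. Overlap was computed in numpy 2.4.6. Members, lists and rules were chosen with earlier results of these data known. All members are named. From each list, up to 3 genes marked in lipid overload alone, up to 2 in both and any in mock alone are named, by height; some genes that this rule names are not reported here. ARID2, CCND1 and MYC had no promoter record, and that of RB1 is not at the gene's outer end.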

Additional observations from a re-analysis of the deposited data

How the results depend on the processing

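With 1 library a condition, no replicate could be left out, and no paired analysis was possible because no test was made. Of 96 recomputed counts, 63 stayed within 1.5 times the reported value. Member peaks are few and small, so thresholds move their counts. At a −log10 q of at least 5, gene-end peaks were left at 1 member in mock (MYC), against 3.85% of coding genes. In lipid overload they were left at 4, against 29.8%. Of these 4, 3 were marked in lipid overload alone, against 26.1%, among them AXIN1, whose mock peak fell below this threshold. Members with any peak numbered 1 and 5, peaks in the genes or at their ends 1 and 9, and peaks within 50 kb 1 and 20. Of these, 1 was shared. The pathway genes marked in mock numbered 8, and all coding genes 762. At a fold of at least 5, mock kept 1 member, 16 pathway genes, 1608 coding genes and 4 peaks within 50 kb. Lipid overload kept 11 peaks in the genes or at their ends, of which 1 was shared, and 23 within 50 kb. With equal list lengths, lipid overload had 3 members marked, at ends and anywhere, 1 of them without a mock gene-end peak. It had 7 and 16 peaks, 44 pathway genes and 5127 coding genes. Scaled to mock depth, 4 members stayed, 2 in lipid overload alone, and likewise when scaled by the ratio of genome backgrounds, an alternative chosen after seeing the data. A neighbourhood of 100 kb held 73 lipid-overload peaks. Merging peaks, placing them by summit, 3 kb gene ends, 25 kb neighbourhoods and other overlap rules moved no count past 1.5 times, though 3 kb ends added ARID1A.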
